A study of Sus scrofa with 18 samples.

Results

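The retinoid-handling genes RLBP1, RDH11, RBP4 and ABCA4 were followed in piglet retina. They were taken as all probe sets annotated with 1 of these 4 symbols alone, which gave 5 probe sets among 24123 on the array, and 4 genes of 6765 with a named probe set. In the study 9 male piglets, crosses of Landrace and Large White, drank pig milk replacer supplemented with sialyllactose (an oligosaccharide of milk that carries sialic acid), and 9 more of that cross and sex drank the milk replacer alone. All were obtained at 3 days of age and sampled on postnatal day 38, and total RNA of each retina sample was hybridised to 1 Affymetrix pig array. The labels give no sialyllactose dose, no litter, and no word on whether 1 or both eyes of a piglet were used, so the p-values measure the spread between these 18 samples.

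Vision depends on 11-cis-retinal, the light-sensitive ligand of the opsins. Light turns it into all-trans-retinal, which must leave the photoreceptor outer segment, be reduced to retinol and be turned back into the 11-cis form, mainly in the pigment epithelium and, for cones, also through Mueller glia. ABCA4 is the outer segment transporter that clears retinal from disc membranes. RDH11 is a retinol dehydrogenase that interconverts retinol and retinal. RLBP1 encodes CRALBP, which binds 11-cis-retinoids in pigment epithelium and Mueller glia. RBP4 is the plasma carrier that brings retinol to tissues, and it is secreted mainly by the liver.

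The tissue label was borne out by high levels of defining retinal genes. SAG (rod arrestin), ARR3 (cone arrestin) and GLUL (the glutamine synthetase of Mueller glia) had mean levels at percentiles 99.9, 99.6 and 99.9 among the 16799 probe sets tested. Pigment epithelium genes were also measured: of 14 with a named probe set, 11 passed the filter on dim probe sets, and their mean deviation on the log2 scale ran from -0.20 to 0.29 in sialyllactose retinas and from -0.41 to 0.43 in control retinas. RPE65, LRAT and RDH5, enzymes of the pigment epithelium cycle, had no probe set with their symbol and were not analysed here. In whole retina, fewer cells of a type and less RNA per cell cannot be told apart.

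RLBP1 was among the brightest probe sets of the array. Its probe set (Ssc.25987.1.S1_at) had a lowest, median and highest log2 value of 8.63, 8.78 and 9.05 in sialyllactose retinas, against 8.64, 8.97 and 9.28 in control retinas. The groups overlapped: 7 of 9 sialyllactose retinas lay below the control median, 1 lay below every control, and 2 controls lay above every sialyllactose retina. Mean levels were 8.81 ± 0.15 with sialyllactose and 8.90 ± 0.22 in control (log2, SD, n = 9 each). The difference was -0.09 on the log2 scale, with a 95% interval of -0.27 to 0.08 (limma adjusted p = 0.895). As a fold this is 0.938, with an interval of 0.831 to 1.06. Without control replicate 2, the control with the highest value, the difference was -0.04.

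RDH11 was bright and varied little between piglets. Its probe set (Ssc.20239.1.A1_at) had a lowest, median and highest log2 value of 6.65, 6.73 and 6.87 with sialyllactose, against 6.53, 6.82 and 6.97 in control. Of the 9 sialyllactose retinas 8 lay below the control median, but all 9 stayed within the control range. Mean levels were 6.74 ± 0.08 with sialyllactose and 6.79 ± 0.14 in control (log2, SD, n = 9 each), a difference of -0.05 with a 95% interval of -0.17 to 0.07 (limma adjusted p = 0.918). The difference was -0.03 without control replicate 5 and -0.08 without control replicate 2. The SD within diets was 0.114, at percentile 20.7 of all tested probe sets.

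RBP4 had the largest diet difference of the 4 genes. Its brighter probe set (Ssc.15695.1.S1_at) had a lowest, median and highest log2 value of 2.74, 2.89 and 3.28 with sialyllactose, against 2.53, 2.84 and 3.10 in control. In it 3 sialyllactose retinas lay above every control and 2 controls lay below every sialyllactose retina, while the medians of the diets were close. Mean levels were 2.98 ± 0.21 with sialyllactose and 2.82 ± 0.17 in control (log2, SD, n = 9 each). The difference was 0.16, with a 95% interval of -0.02 to 0.34, which as a fold is 1.12 with an interval of 0.989 to 1.27. It did not pass the test over all probe sets (limma adjusted p = 0.785).

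The second RBP4 probe set (Ssc.10930.1.A1_at) was dim, and it was the only one of the 5 probe sets under the level filter. It had a lowest, median and highest log2 value of 1.04, 1.27 and 1.53 with sialyllactose, against 0.913, 1.24 and 1.42 in control. Its difference was 0.04 with a 95% interval of -0.13 to 0.21 (limma without the filter, adjusted p = 0.965). The 2 RBP4 probe sets followed each other weakly over the 18 retinas, with a Pearson r of 0.30 (permutation p = 0.231) and a Spearman rho of 0.37 (permutation p = 0.127). The mean of both probe sets differed by 0.10 (limma adjusted p = 0.856).

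ABCA4 was measured at a low level on this array. Its probe set (Ssc.10677.1.A1_at) lay at percentile 18.8 of the tested probe sets, with a lowest, median and highest log2 value of 2.07, 2.19 and 2.36 with sialyllactose, against 1.91, 2.17 and 2.59 in control. All sialyllactose values lay inside the control range, 3 controls lay below them and 1 control, replicate 7, lay above them. Mean levels were 2.21 ± 0.09 with sialyllactose and 2.16 ± 0.19 in control (log2, SD, n = 9 each), a difference of 0.06 with a 95% interval of -0.09 to 0.20 (limma adjusted p = 0.926). It was 0.11 without control replicate 7 and 0.02 without control replicate 2.

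**Figure D1:**
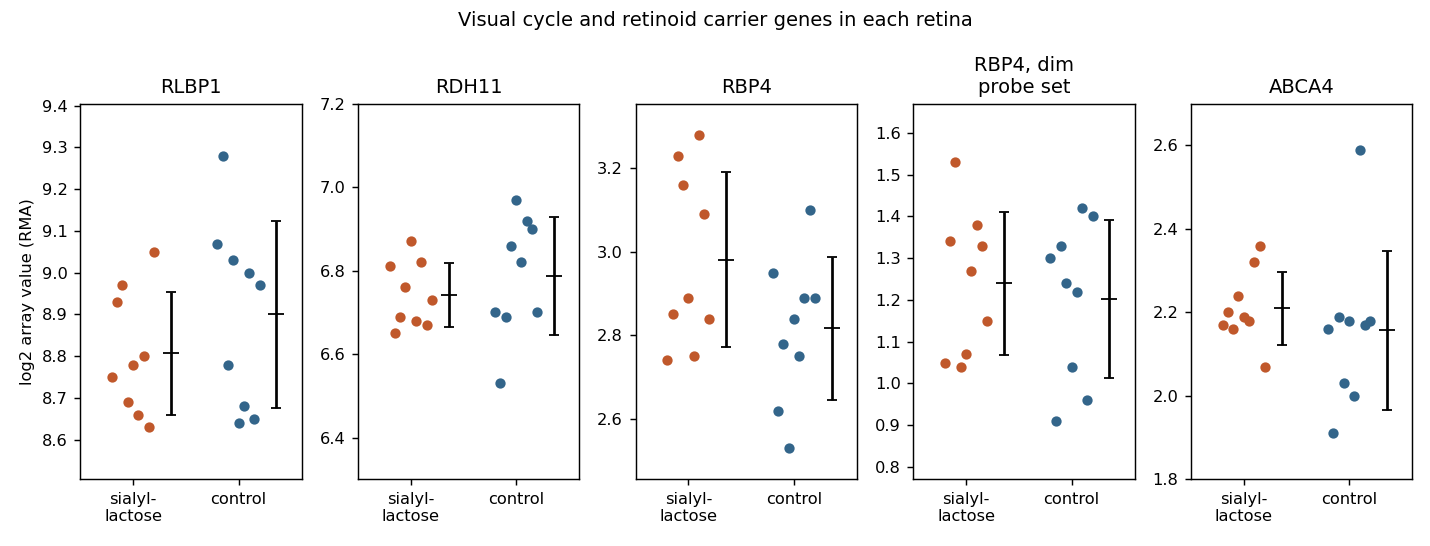
Each point is the log2 RMA value of 1 retina for the 5 probe sets (sialyllactose left, control right, 9 retinas each), in panels that span the same height of 0.90 log2 units at different levels, with bars for the mean and SD beside the points. The diets overlap in every panel, and for ABCA4 control replicate 7 stands at 2.59, above all other retinas.

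The levels of the 4 genes are those of different probe sets, whose brightness depends on the probes, so no gene was ranked against another. By mean level RLBP1 lay at percentile 99.1 of the tested probe sets, RDH11 at 92.8, RBP4 at 32.2 and ABCA4 at 18.8. Differences between diets can be set side by side, with the limit that RMA compresses those at dim probe sets such as RBP4 and ABCA4. Of the 4 genes 0 passed the limma test at an adjusted p of 0.05, and over all 16799 probe sets 0% passed. At an unadjusted p under 0.05 the numbers were 0 of 4 genes against 6.3% of all probe sets (1059), and 920 passed at that level by the exact rank-sum test. The 2 genes with higher means were RBP4 and ABCA4 and the 2 with lower means were RLBP1 and RDH11, and over all probe sets 46.6% had higher and 53.4% lower means.

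Whether one gene's diet difference differed from another's was tested directly on each retina's difference between the 2 log2 values, for all 6 pairs, by an exact permutation test over all splits of the diet labels (two-sided). The largest separation was between RLBP1 and RBP4, at -0.26 ± 0.14 (SE, n = 9 each, exact permutation p = 0.0906, adjusted p = 0.272 over the 6 pairs). RDH11 and RBP4 differed by -0.21 ± 0.10 (SE, n = 9 each, exact permutation p = 0.0429, adjusted p = 0.257). The other 4 pairs differed by 0.15 or less in size (RLBP1 against ABCA4, -0.15, adjusted p = 0.316 by the same exact test). None of the 6 passed after adjustment, so the photoreceptor, Mueller glia and carrier genes were not shown to differ in their response to the diet. Pairs of a bright and a dim gene also carry the compression at dim probe sets.

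No gene of the wider retinoid pathway passed the test either. Of 55 other retinoid genes listed, 22 had a named probe set and 16 passed the level filter. Means were higher with sialyllactose for 8 of the 16 and lower for 8, and 0 passed limma at an adjusted p of 0.05 (lowest adjusted p = 0.794). Their median difference was 0.01, against -0.01 over all tested probe sets, and 0 of the 16 had an unadjusted p under 0.05. The smallest p belonged to RARB, a retinoic acid receptor measured near the floor at 1.42 ± 0.14 with sialyllactose and 1.55 ± 0.16 in control (log2, SD, n = 9 each), a difference of -0.13 with a 95% interval of -0.28 to 0.02. ADH5, an alcohol dehydrogenase, followed at 6.11 ± 0.09 with sialyllactose and 6.02 ± 0.09 in control, a difference of 0.09 with an interval of -0.01 to 0.19.

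Other genes of the retinoid list, dehydrogenases among them, showed small differences. RDH14, a related retinol dehydrogenase, was measured at 4.84 ± 0.14 with sialyllactose and 4.78 ± 0.12 in control (log2, SD, n = 9 each), and DHRS7, a short-chain dehydrogenase, at 3.95 ± 0.11 with sialyllactose and 4.05 ± 0.20 in control. DGAT1, which can esterify retinol, was measured at 3.61 ± 0.08 with sialyllactose and 3.53 ± 0.18 in control. Of the remaining genes of the 12 with the smallest p, LPL, RXRG and RXRA had higher means and BCO2 and RXRB lower means, all with differences of 0.07 or less in size.

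TTR and ALDH1A1 had wider ranges between piglets than any of the 4 genes. TTR, the transthyretin that partners RBP4 in plasma and is made by pigment epithelium, ranged from 5.53 to 8.09 with sialyllactose and from 4.54 to 8.32 in control. ALDH1A1, which makes retinoic acid, ranged from 2.72 to 6.89 with sialyllactose and from 3.97 to 6.97 in control. The diet differences were -0.14 for TTR and 0.20 for ALDH1A1, with 95% intervals of -1.04 to 0.77 and -0.82 to 1.22. The widest SD within diets among the 4 genes was 0.193, in RBP4.

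**Figure D2:**
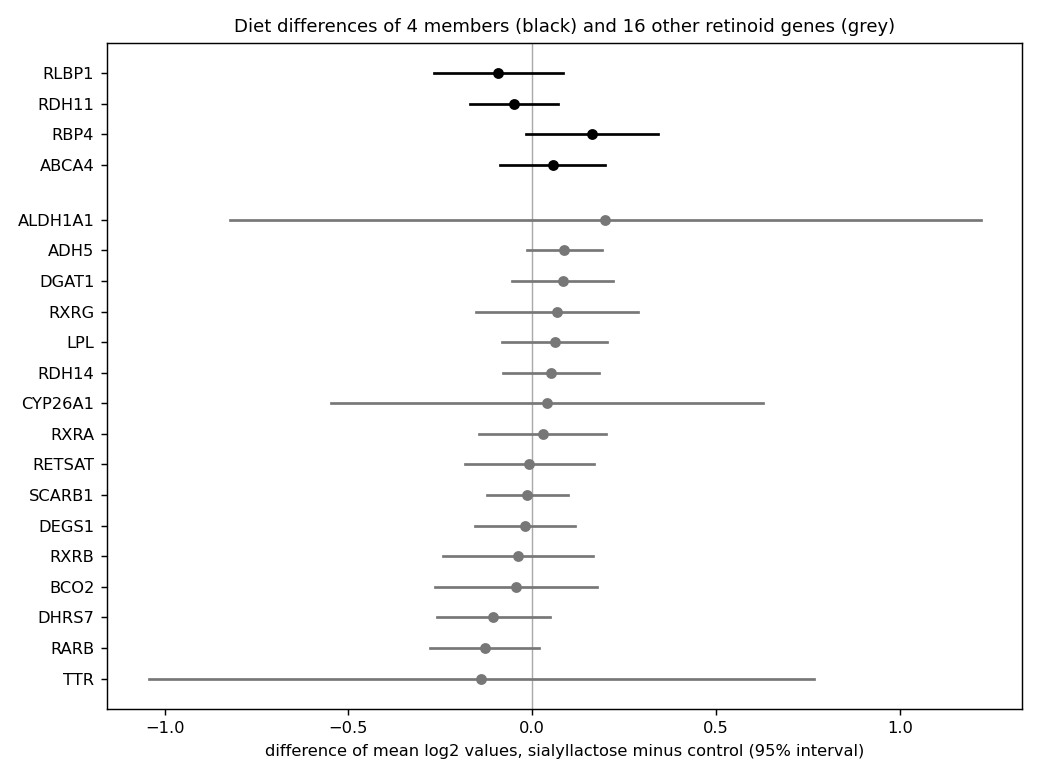
Points give the difference of mean log2 values, sialyllactose minus control, with 95% intervals from limma, for the 4 genes (black) and 16 other tested retinoid genes (grey, ordered by difference). Every interval spans 0, and those of ALDH1A1, TTR and CYP26A1 are the widest.

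The SD between piglets was smaller with sialyllactose than in control for 3 of the 4 genes, as it was for 62.6% of all tested probe sets. The ratio of the SD with sialyllactose to that in control was 0.461 for ABCA4, 0.542 for RDH11 and 0.663 for RLBP1, and 1.20 for RBP4. A ratio lower still was found in 6.27% of all tested probe sets for ABCA4, 12.4% for RDH11, 24.97% for RLBP1 and 78.7% for RBP4, and the median ratio of all was 0.875. The control SD of ABCA4 was 0.189, and it was 0.106 without control replicate 7. That of RDH11 was 0.142, and 0.110 without control replicate 2. These ratios are a description and were not tested.

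The next question was whether the 4 genes varied together over the 18 retinas. RBP4 and ABCA4 had the highest correlation of the 6 pairs, with a Pearson r of 0.50 (permutation p = 0.0332, adjusted p = 0.199 over 6 pairs) and a Spearman rho of 0.52 (permutation p = 0.0292, adjusted p = 0.175). The sign was the same within each diet, with r = 0.56 over 9 sialyllactose retinas (exact permutation p = 0.130) and r = 0.50 over 9 control retinas (exact permutation p = 0.167). Without the 2 retinas farthest from the RBP4 median, r was 0.53 (permutation p = 0.0339). Without control replicate 7, the high ABCA4 value, r was 0.70 (permutation p = 0.0017, adjusted p = 0.0102), and without control replicate 2 it was 0.41 (permutation p = 0.102, adjusted p = 0.612). With the dim RBP4 probe set averaged in, an alternative chosen after seeing the data, it was 0.59 (permutation p = 0.0099, adjusted p = 0.0594). Both genes lay low by mean level, at percentiles 32.2 (RBP4) and 18.8 (ABCA4) of the tested probe sets.

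RLBP1 had a negative correlation with each of the other 3 genes, none of which passed after adjustment. With RDH11, Pearson's r was -0.44 (permutation p = 0.0687, adjusted p = 0.206) and Spearman's rho -0.23 (permutation p = 0.361). It was -0.12 over 9 sialyllactose retinas (exact permutation p = 0.754) and -0.67 over 9 control retinas (exact permutation p = 0.0482). Without control replicates 1 and 2, the 2 retinas farthest from the RLBP1 median, r was -0.15. Leaving out control replicate 2 alone gave -0.21 and leaving out control replicate 1 alone gave -0.42, so the relation rested on control replicate 2. With ABCA4, r was -0.29 (permutation p = 0.249, rho -0.39) over all retinas, -0.59 without control replicate 7 (permutation adjusted p = 0.0371) and -0.04 without control replicate 2. Within diets it was -0.66 over 9 sialyllactose retinas (exact permutation p = 0.0507) and -0.13 over 9 control retinas (exact permutation p = 0.771). With RBP4, r was -0.31 (permutation p = 0.206) and rho -0.16.

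Control replicate 2 had the highest RLBP1 value of all 18 retinas (9.28) together with the lowest RDH11 (6.53) and the lowest ABCA4 (1.91), and the second lowest RBP4 (2.62). Its marker scores were -0.04 for Mueller glia, 0.06 for rods and cones, -0.11 for pigment epithelium and -0.19 for endothelium and pericytes. The last was the lowest among controls, but sialyllactose replicate 4 had a lower one, -0.23. The GLUL value of control replicate 2, 10.97, was the highest of all 18 retinas. The 3' to 5' signal difference of the actin, GAPDH and EF1-alpha control probe sets, a sign of RNA length, was 1.89 in it, against a mean of 1.90 over all controls. RDH11 was not clearly tied to RBP4 (r = 0.08, permutation p = 0.749) or to ABCA4 (r = 0.33, permutation p = 0.181, rho 0.07). The 3' to 5' difference averaged 1.96 ± 0.19 with sialyllactose and 1.90 ± 0.17 in control (SD, n = 9 each), and its r with the 4 genes ran from -0.21 to 0.26 (permutation adjusted p of 0.557 or more over 4 relations).

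**Figure D3:**
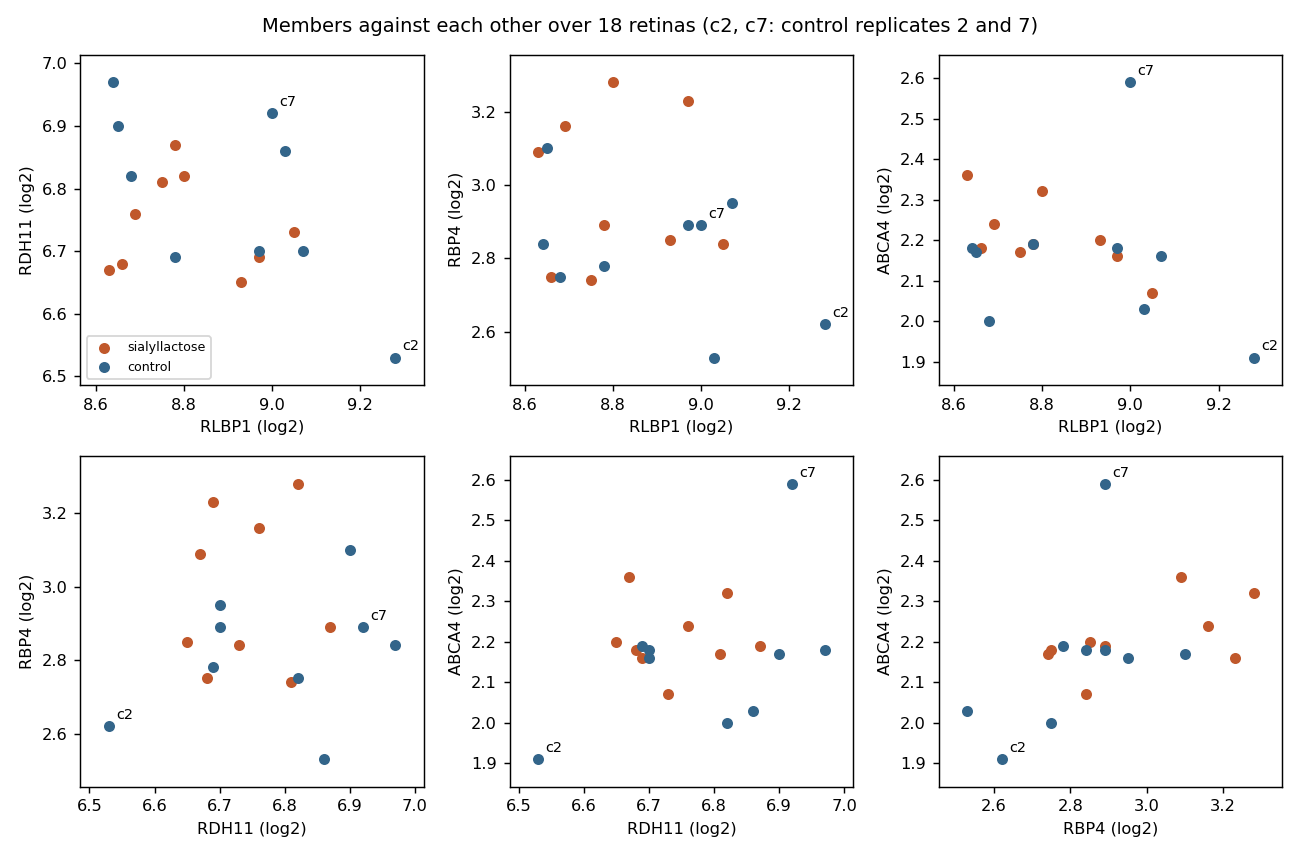
Each panel plots 2 of the 4 genes against each other in log2 RMA values over 18 retinas (9 sialyllactose, 9 control), with control replicates 2 and 7 marked c2 and c7. RBP4 and ABCA4, both dim, had the highest r of the 6 pairs (0.50, permutation adjusted p = 0.199), and c2 lies at the edge of the RLBP1 panels at 9.28.

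Among 7 cell type marker genes, RLBP1 varied most closely with the Mueller gene GLUL. GLUL had a lowest, median and highest log2 value of 10.1, 10.4 and 10.9 with sialyllactose, against 10.2, 10.6 and 10.97 in control. RLBP1 and GLUL had a Pearson r of 0.82 (permutation p = 3.0e-05, adjusted p = 0.00084 over 28 relations of the 4 genes with 7 marker genes, a family added after seeing the data) and a Spearman rho of 0.72 (permutation adjusted p = 0.0246). The relation held in both diets, with r = 0.96 over 9 sialyllactose retinas (exact permutation p = 0.00011) and r = 0.78 over 9 control retinas (exact permutation p = 0.0104). Without control replicates 1 and 2 it was 0.80 (permutation p = 0.00057), and with any 1 retina left out it ran from 0.77 to 0.88. It was the only one of the 28 relations to pass after adjustment.

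The relation was not shared by all Mueller glia genes or by all GLUL probe sets. The 3 GLUL probe sets had mean levels of 10.5, 7.49 and 2.996 and an r with RLBP1 of 0.82, 0.55 and -0.22. With VIM, the intermediate filament of Mueller glia, r was 0.33 (permutation p = 0.181, adjusted p = 0.461) and rho 0.43. After removal of the diet means, r with RLBP1 exceeded 0.5 for 3 of 17 tested Mueller genes, GLUL, CLU (0.64) and APOE (0.55), against 8.6% of all other genes. CLU and APOE were picked with their values known. The median r with RLBP1 was 0.24 over the 17 Mueller genes and 0.31 over the 6 rod and cone genes (5 of them positive), against 0.05 over all genes, so a likeness above the median of all genes was not particular to the Mueller list. As a score over the 17 genes, GLUL included, the Mueller markers had an r of 0.49 with RLBP1 (permutation p = 0.0389, adjusted p = 0.338 over 16 relations) and a rho of 0.52. Within diets this r was 0.23 over 9 sialyllactose retinas (exact permutation p = 0.564) and 0.51 over 9 control retinas (exact permutation p = 0.158).

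The Mueller marker score itself averaged -0.05 ± 0.06 with sialyllactose and 0.05 ± 0.12 in control (log2 deviation, SD, n = 9 each), and 11 of its 17 genes had lower means with sialyllactose, against 53.4% of all probe sets. Means were also lower for 11 of 15 endothelial and pericyte genes and 7 of 11 pigment epithelium genes, and higher for 5 of 6 rod and cone genes. Most of those 6 are cone genes, and the rod arrestin SAG was the one with a lower mean (difference -0.10). None of the genes of these 4 lists passed limma at an adjusted p of 0.05. At an unadjusted p under 0.05 the counts were 2 Mueller, 3 endothelial and pericyte, 1 pigment epithelium and 0 rod and cone genes, against 6.3% of all probe sets. The part of these shifts in the differences of RLBP1 and the other 3 genes was not tested.

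ABCA4 was set against rod and cone genes, since photoreceptors express it. Over 18 retinas its r with the score of 6 tested rod and cone genes was 0.50 (permutation p = 0.0422, adjusted p = 0.338) and rho was 0.35. The score was highest in control replicate 7 (0.40), the retina with the highest ABCA4, and without that retina r was 0.11. Without control replicates 2 and 7 it was 0.27 (permutation p = 0.311). Within diets r was -0.42 over 9 sialyllactose retinas (exact permutation p = 0.261) and 0.66 over 9 control retinas (exact permutation p = 0.0988), so the signs did not match. Most genes of the score are cone genes. Over 18 retinas ABCA4 had an r of -0.04 with SAG and of 0.16 with ARR3 (permutation p = 0.860 and 0.518).

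For RBP4 and RDH11 no relation with the 4 cell type scores passed. For RBP4, r was -0.34 with Mueller, 0.21 with rod and cone, -0.30 with pigment epithelium and -0.22 with endothelial and pericyte genes, and for RDH11 the same scores gave 0.10, -0.05, 0.16 and 0.29 (permutation adjusted p of 0.753 or more). With HBB, beta globin, a blood gene at percentile 84.1 by level, RBP4 had an r of -0.55 (permutation p = 0.0179, adjusted p = 0.234). Its rho was -0.48, and r was -0.28 without the 2 retinas farthest from the RBP4 median. ABCA4 with HBB had an r of -0.43 (permutation p = 0.0780, adjusted p = 0.387), and -0.68 without control replicates 2 and 7. With SAG, the r of RBP4 was -0.53 (permutation p = 0.0251, adjusted p = 0.234), opposite in sign to that with the rod and cone score. The pigment epithelium score had an r of 0.26 with RLBP1 (permutation p = 0.295), which those cells also express, and of -0.01 with ABCA4.

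**Figure D4:**
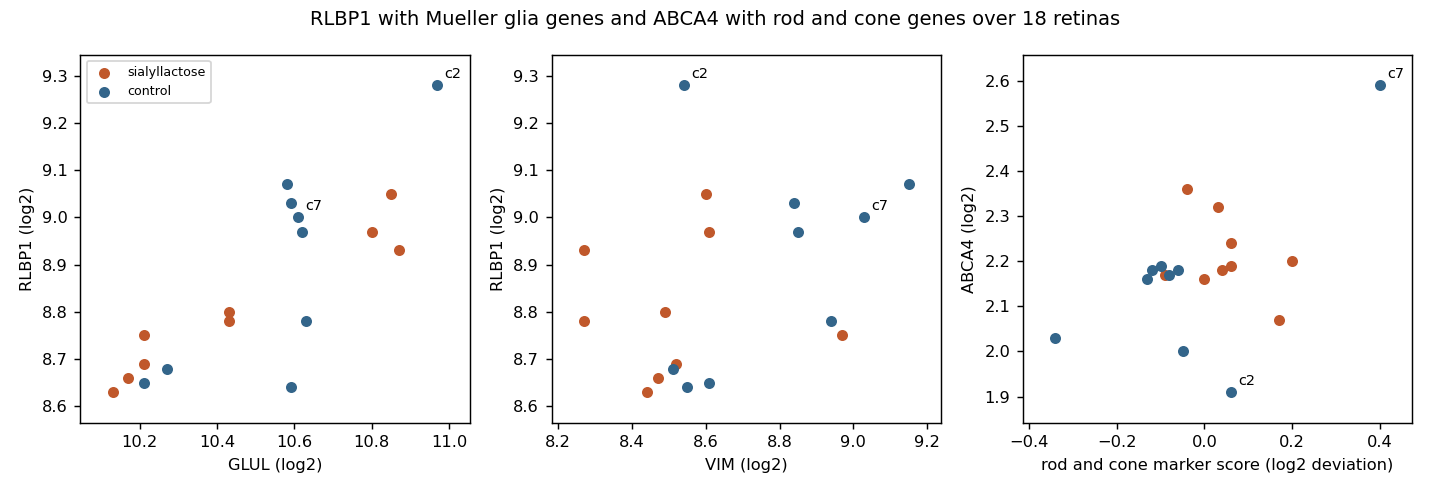
The left and middle panels plot RLBP1 against GLUL and VIM (log2 RMA values) and the right panel plots ABCA4 against the mean log2 deviation of 6 rod and cone genes, each over 18 retinas (9 sialyllactose, 9 control). RLBP1 rises with GLUL in both diets (r = 0.82), and in the right panel control replicate 7 (c7) lies apart at 2.59.

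**Figure D5:**
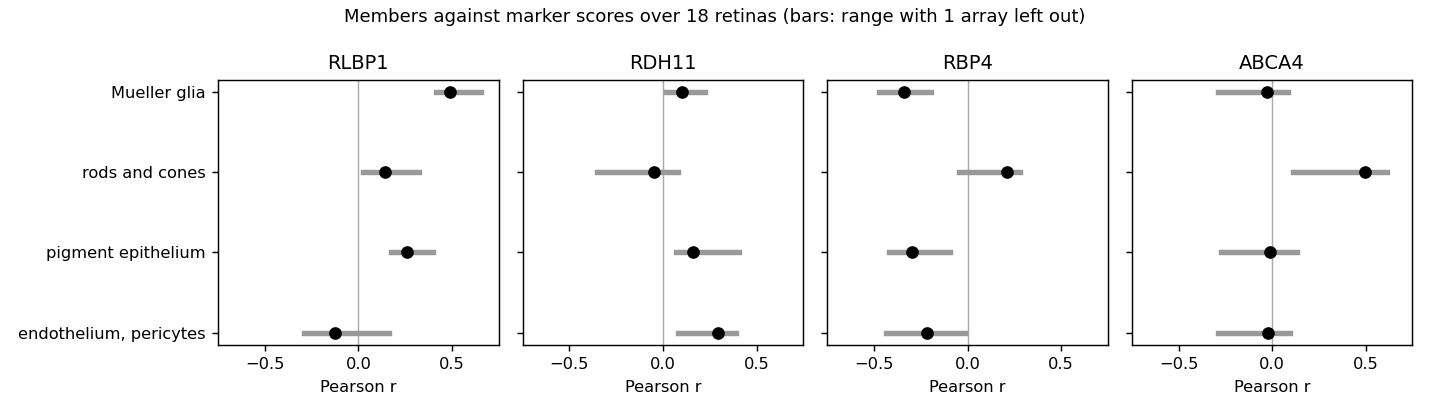
Points give Pearson's r of each gene with 4 cell type marker scores over 18 retinas, and grey bars the range of r when 1 retina is left out. RLBP1 with Mueller glia (0.49) and ABCA4 with rods and cones (0.50) are the highest, and the bar of ABCA4 reaches down to 0.11.

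The genes with the pattern most like each of the 4 were ranked by Pearson's r of deviations from the diet means over 18 retinas, across 5709 other genes at their brightest probe set. RLBP1 was followed most closely by GATD1 (0.91), PAPSS2, a sulfate donor synthase (0.89), EFEMP2, an extracellular matrix protein (0.88), S100A1, a calcium-binding protein (0.84), and ALDH2, a mitochondrial aldehyde dehydrogenase (0.83). RDH11 was followed by ARL6IP1, an endoplasmic reticulum protein (0.85), KIF21A, a kinesin (0.84), TMEM70 (0.82), ZNF281 (0.82) and EIF1AY (0.81). None of these 10 genes belonged to the retinoid or marker lists. On the same measure GLUL stood at 0.81 with RLBP1, below the 5 genes named for RLBP1.

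RBP4 and ABCA4 had weaker top matches. For RBP4 they were DSTYK (0.72), the lysosomal protease CTSB (0.71), TBC1D20 (0.69), the interferon-induced OAS1 (0.68) and LY96, a partner of a toll-like receptor (0.68). For ABCA4 they were the aspartate aminotransferase GOT1 (0.79), LRMDA (0.79), POMT2 (0.76), RHOG (0.74) and CYB5B (0.74). On this measure ABCA4 stood at 0.47 with RBP4, a value exceeded by 2.28% of the genes set against RBP4 and 2.31% of those set against ABCA4. The same arrays enter every one of these values, and the likeness values carry no test.

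The 16 other tested retinoid genes were set beside the 4 on the same measure. Their median r was 0.16 with RLBP1, against 0.05 over all genes, and 0.03 with RDH11, against -0.00452. It was -0.11 with RBP4, against -0.03 over all genes, and -0.04 with ABCA4, against -0.02. An r above 0.5 was found for 0 of 16 with RLBP1, against 8.6% of all genes, and for 1 of 16 with RDH11, against 7.67%. With RBP4 it was found for 0 of 16, against 1.77%, and with ABCA4 for 1 of 16, against 1.73%. Values over 0.5 in size, picked after they were seen, were those of RLBP1 with CYP26A1, which breaks down retinoic acid (-0.61), of RDH11 with ADH5 (0.59) and DGAT1 (-0.65), and of ABCA4 with RETSAT, which saturates retinol (0.51), and DGAT1 (-0.54). RLBP1 had an r of 0.48 with ALDH1A1 and of 0.12 with TTR on the same measure.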

How the data were processed

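Total RNA of 18 piglet retina samples was measured on Affymetrix pig arrays, 9 per diet, grouped by sample title. The authors deposited log2 values, 1 for each probe set on each array. They came from RMA in Affymetrix Expression Console, per the submitters' processing notes, with settings and genome build not given in the sources used here. RMA compresses differences at dim probe sets, gives no call of detection, and cannot show a change that most genes share. The number of arrays limits the precision.

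From these values 124 control probe sets and the 30% of the rest with the lowest mean (7200) were left out, and 16799 were tested with limma 3.58.1 in R 4.3.3 (lmFit, eBayes, no covariates, Benjamini-Hochberg over all tested). A gene was represented by its brightest tested probe set. Gene symbols came from the platform annotation, and the gene identifiers of all 4 genes were found in a RefSeq gene table with unchanged symbols. Correlations used 100000 permutations, or all orderings within a diet. A marker score averages, over the tested genes of a list, how far an array lies from the mean of each gene. The genes named are the 4 with all probe sets, 12 retinoid genes with the smallest p with TTR and ALDH1A1, 7 marker genes and the 5 genes most like each of the 4. CLU, APOE, CYP26A1 and RETSAT lie outside this rule and were named with their values known. The genes and lists were chosen with earlier results of these data known. No array shared identical values with another. Steps were tested on simulated data. Sequences were not used here. The labels do not say that a replicate number marks a litter or batch.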

Additional observations from a re-analysis of the deposited data

Results flagged for a closer look

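The ABCA4 value of control replicate 7, 2.59 on the log2 scale, stood apart from the other 8 controls. Its gap to the next control was 0.586 of the group's range, above the limit of 0.493 that Dixon's test sets for 9 samples. Among the 5 probe sets in 2 diets it was the only value to do so, and chance alone gives about 1 in 20 groups.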

How the results depend on the processing

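The diet differences of RLBP1, RDH11, RBP4 and ABCA4 kept their direction and stayed short of the threshold under every alternative run. These were other filters, normalization, array weights, an intensity trend, an exact rank-sum test, and 1 retina left out. Adjusted p ran from 0.690 to 0.975, by limma in every setting but the rank-sum test. ABCA4 has no value under the stricter filter on dim probe sets, because it fell below it. Same-numbered retinas of the 2 diets had correlations of their deviations from -0.113 to 0.164, over 0.1 in 3 of 9 pairs. Of the 9 sialyllactose retinas 3 correlated best with the control of their own number. These values cannot tell whether a number marks a shared litter or batch. With the number as a replicate block the differences were -0.09, -0.05, 0.16 and 0.06, and 0 probe sets passed. Several correlations near 0 changed sign. Averaging both RBP4 probe sets gave -0.0415 for RDH11 with RBP4. With arrays centred on their median, r was 0.0593 for RDH11 with rods and cones, and for ABCA4 0.0350 with Mueller glia, 0.0169 with pigment epithelium and 0.0959 with endothelium. With diet means removed, r was -0.0159 for RDH11 with Mueller glia and 0.0223 with rods and cones, and for ABCA4 0.0852, 0.0179 and 0.0651 with Mueller glia, pigment epithelium and endothelium. With 1 retina left out, r ran from -0.544 to -0.209 for RLBP1 with RDH11, from -0.592 to -0.0358 for RLBP1 with ABCA4, from -0.119 to 0.203 for RDH11 with RBP4 and from 0.410 to 0.697 for RBP4 with ABCA4. The RLBP1 and RDH11 pair, the RLBP1 and ABCA4 pair and the RBP4 and ABCA4 pair passed without control replicate 7 alone. Against marker scores it ran from -0.293 to 0.165 (RLBP1, endothelium), -0.350 to 0.0811 (RDH11, rods and cones), -0.0462 to 0.279 (RBP4, rods and cones), and for ABCA4 from -0.288 to 0.0842 (Mueller glia), -0.275 to 0.135 (pigment epithelium) and -0.291 to 0.0942 (endothelium). The gap between the RLBP1 and RDH11 diet differences ran from -0.0995 to 0.0365. The causes were not tested. RLBP1 with GLUL passed with any 1 retina left out. RBP4 and ABCA4 are dim, and the table gives no detection call for them.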
